A study of Homo sapiens with 12 samples.

Results

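The genes described here make, sense, move and export cholesterol: 30 human genes, taken by exact gene symbol from the 26475 symbols of the count tables. All 30 were found, and all 30 were among the 15461 genes with enough counts to test. They comprise 18 enzymes of cholesterol synthesis (HMGCS1, MVK, PMVK, MVD, IDI1, FDPS, GGPS1, FDFT1, SQLE, LSS, CYP51A1, TM7SF2, MSMO1, NSDHL, HSD17B7, EBP, SC5D and DHCR7), 4 genes of sterol sensing (INSIG1, INSIG2, SREBF2 and SCAP), a thiolase and a sterol esterifying enzyme (ACAT2 and SOAT1), 3 carriers of cholesterol between membranes (STARD4, NPC1 and NPC2), and 3 genes of cholesterol export and receptor turnover (ABCA1, ABCG1 and MYLIP). GGPS1 makes the geranylgeranyl chain on a branch of the pathway and was counted with the enzymes.

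SUM159 cells, a human triple-negative breast cancer line, were grown as tumours in female NOD scid gamma mice, which lack functional lymphocytes but keep other host cells. Each mouse was 8 weeks old at injection and then ate either a standard diet (CTR) or, for 4 consecutive days per week, a diet that mimics fasting (FMD). Cells were sorted by surface CD24, after staining for human CD24 and CD44, into a CD24-low and a CD24-high population, giving 4 groups of 3 libraries: CTR_LO, CTR_HI, FMD_LO and FMD_HI. The line and the host strain are shared by all 4 groups. Levels are given as CPM, the counts of a gene scaled to the total of its library and a normalisation factor, and as mean ± SD (n = 3 libraries). Changes are log2 fold changes ± SE from one fit of all 12 libraries. A gene "rose" or "fell" where its edgeR p, adjusted over all 15461 genes, was below 0.05.

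Cells build cholesterol from acetyl-CoA through mevalonate, the isoprenoids and squalene to lanosterol, which further enzymes trim to cholesterol. When sterols in the endoplasmic reticulum fall, SCAP escorts the transcription factor SREBP-2, the product of SREBF2, out of that membrane and the synthesis genes are switched on, whereas the INSIG proteins hold SCAP back when sterols are plentiful. A surplus of oxidised sterols activates the LXR receptors, which switch on ABCA1, ABCG1 and MYLIP.

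Of the 30 genes 26 matched an entry in the RefSeq promoter table (GRCh38.p14), all except FDFT1, SQLE, ACAT2 and ABCG1. The 250 bases before each start site in that table were searched on both strands for 3 short motifs: TCACNCCAC, a form of the sterol regulatory element that SREBP-2 binds, CCAAT, the core bound by NF-Y, and GGGCGG, the core bound by SP1, the last pair being known partners of SREBP-2 on synthesis genes. CCAAT was present in 16 of the 26 promoters against 32.01% of the 35116 promoters listed, and GGGCGG in 24 of the 26 against 42.64%. TCACNCCAC was present in 1, SREBF2, against 0.8828% of the table's promoters. The 35116 promoters were not limited to genes with enough counts to test, as the 26 were, so the sets compared are unlike. CCAAT was in 11 of the 16 enzyme promoters. The 5 promoters below are shown 5′ to 3′ on the gene's strand, with CCAAT on either strand, and the sterol element, in capitals. MVK (chr12:109573544-109573793, plus strand), NSDHL (chrX:152830813-152831062, plus strand) and SC5D (chr11:121292602-121292851, plus strand) are synthesis genes that fell in FMD_LO, SREBF2 (chr22:41832855-41833104, plus strand) holds the sterol element, and ABCA1 (chr9:104928156-104928405, minus strand) is the member that rose.
MVK: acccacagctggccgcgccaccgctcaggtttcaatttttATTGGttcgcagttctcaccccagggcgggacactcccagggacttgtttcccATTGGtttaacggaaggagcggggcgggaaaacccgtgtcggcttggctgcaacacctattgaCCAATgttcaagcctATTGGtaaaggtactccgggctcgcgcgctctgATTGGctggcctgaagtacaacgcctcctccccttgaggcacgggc
NSDHL: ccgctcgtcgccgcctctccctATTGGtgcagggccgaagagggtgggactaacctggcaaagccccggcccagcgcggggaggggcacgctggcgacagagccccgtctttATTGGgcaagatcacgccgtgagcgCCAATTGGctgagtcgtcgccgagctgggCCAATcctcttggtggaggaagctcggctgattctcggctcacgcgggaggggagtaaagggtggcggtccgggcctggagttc
SC5D: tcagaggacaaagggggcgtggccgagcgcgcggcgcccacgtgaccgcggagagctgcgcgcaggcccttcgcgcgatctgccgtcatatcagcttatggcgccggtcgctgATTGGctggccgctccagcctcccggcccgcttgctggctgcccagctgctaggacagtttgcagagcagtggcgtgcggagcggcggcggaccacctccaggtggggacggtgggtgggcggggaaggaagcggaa
SREBF2: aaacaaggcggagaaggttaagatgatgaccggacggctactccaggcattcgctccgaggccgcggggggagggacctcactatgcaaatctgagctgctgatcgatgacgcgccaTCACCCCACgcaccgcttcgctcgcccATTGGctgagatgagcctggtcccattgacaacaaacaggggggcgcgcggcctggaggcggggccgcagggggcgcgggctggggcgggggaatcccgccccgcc
ABCA1: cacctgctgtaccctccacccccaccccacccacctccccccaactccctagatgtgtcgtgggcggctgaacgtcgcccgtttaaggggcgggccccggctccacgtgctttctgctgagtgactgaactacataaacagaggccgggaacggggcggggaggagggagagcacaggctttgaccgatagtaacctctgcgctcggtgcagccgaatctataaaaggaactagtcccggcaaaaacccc

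MVK and NSDHL each hold 5 matches to CCAAT, with 1 pair in NSDHL overlapping as ccaattgg. SC5D holds 1. In SREBF2 the sterol element lies 133 bases before the start site and 1 CCAAT lies 106 bases before it. The ABCA1 window holds no CCAAT and 3 matches to GGGCGG. Of the 7 members that fell in FMD_LO, 5 had a promoter in the table and 3 of these held CCAAT, so HMGCS1 and PMVK fell without a match in this window. The windows of MVK and PMVK, most of that of HMGCS1 and part of that of SC5D lie inside the gene positions given below. Those of IDI1, GGPS1, CYP51A1 and SCAP, most of that of NPC2 and part of that of INSIG2 also lie inside their genes. The motif counts above hold for these windows only. Sequence before start sites further out was not searched for these genes.

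Library totals ran from 17736610 to 47587142 counts, with FMD_LO libraries up to 18579816 and the remaining libraries from 29049144. The FMD_LO libraries also stood apart on the first principal component of all genes tested (57.4% of the variance), at 79.5 to 88.9 against −46.1 to 2.35 elsewhere. Some markers of other cell types rose in FMD_LO too. Against CTR_LO, 8 of 13 myeloid and leukocyte markers tested (15 listed), 6 of 12 fibroblast markers and 2 of 9 endothelial markers rose. Of all genes tested 12% rose. Summed myeloid markers reached 202 to 228 CPM in FMD_LO against 39.9 to 52.1 in CTR_LO, 43.8 to 59.6 in CTR_HI and 56.9 to 76.6 in FMD_HI, although TYROBP, an adaptor of myeloid receptors, had 0 counts in all 3 FMD_LO libraries. Summed fibroblast markers reached 46936 to 69544 CPM in FMD_LO against 19841 to 35418 in CTR_LO and 13959 to 17705 in FMD_HI. Of 5 skeletal muscle markers tested (8 listed) 3 rose and 2 were lower, 1 of these without overlap. The 8 together summed to 68.7 to 105 CPM in FMD_LO against 5.47 to 14.4 in CTR_LO and 3.99 to 7.28 in FMD_HI. MYH4 had 0 counts in all 3 FMD_LO libraries. Of 6 adipocyte markers tested (9 listed) 1 rose (12% of all genes) and 1 fell (4.33%). In FMD_LO 5 of these 6 were lower (53.2%), with a median of −0.13. Of 7 lymphocyte markers listed 0 had enough counts to test. Of 9 tumour-line and carcinoma markers 2 fell (4.33% of all genes), with a median of −0.32. In FMD_LO 8 were lower than in CTR_LO (53.2%), 5 of them without overlap (17.8%). The sum of the 9, carried mostly by VIM and CD44, overlapped in all 4 groups (7081 to 8987 CPM over the 12 libraries). The epithelial marker EPCAM was at or below 1.02 CPM. The part of these marker differences in the members' results was not tested. Of 14 mitotic genes 3 fell (4.33% of all genes) and 14 were lower in FMD_LO (53.2%), with a median of −0.72. In bulk libraries, fewer cells of a type and less RNA per cell cannot be told apart.

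In CD24-low cells, the fasting-mimicking diet went with lower cholesterol synthesis transcripts and with more ABCA1. Of the 30 genes 7 fell against CTR_LO (4.33% of all genes tested fell) and 1 rose (12% of all genes rose). The genes that fell were HMGCS1, MVK, PMVK, FDFT1, NSDHL, SC5D and ACAT2. Log2 fold changes were negative for 21 of 30 members (53.2% of all genes), with a median of −0.36 against −0.03 over all genes, and for 17 of 18 synthesis enzymes, with a median of −0.46. LSS alone of the enzymes was not lower (0.06 ± 0.12). Libraries of the 2 groups did not overlap for 11 members that were lower in FMD_LO (17.8% of all genes) and for 1 that was higher (19.7%). The 18 enzymes together summed to 804 to 865 CPM in FMD_LO, below the 916 to 1270 of CTR_LO, the 1037 to 1367 of CTR_HI and the 974 to 1081 of FMD_HI. The FMD_LO range was also the narrowest of the 4.

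**Figure D1:**
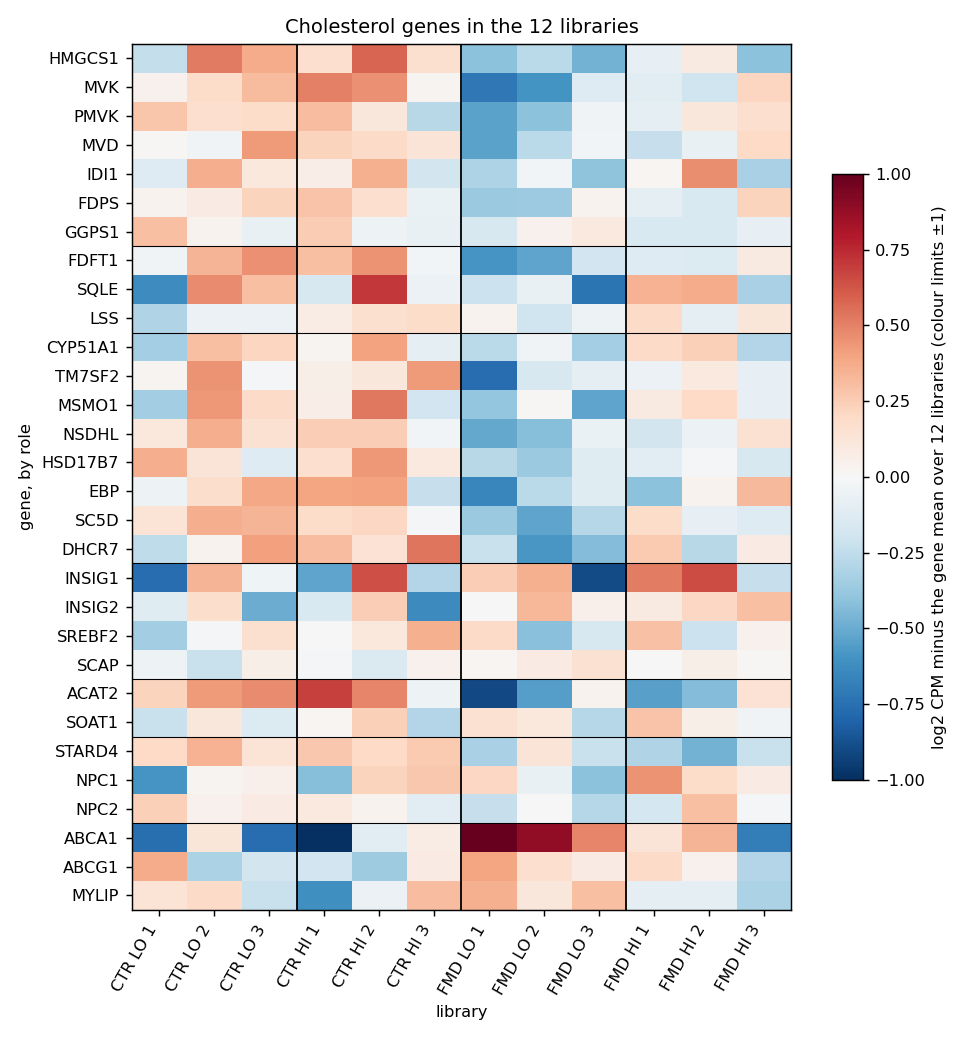
Log2 CPM of each of the 30 genes (rows, ordered by role) in each of the 12 libraries (columns), minus that gene's mean over the 12 libraries, with colour limits at ±1 log2 units. Most synthesis enzymes are blue in the 3 FMD_LO libraries, where ABCA1 is red, and the row of INSIG1 varies widely inside each group.

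Among the mevalonate steps, 3 of 7 enzymes fell and all 7 were lower in FMD_LO. HMGCS1, which joins acetyl-CoA to acetoacetyl-CoA (chr5:43287470-43313412), measured 167, 281 and 254 CPM in the CTR_LO libraries and 148, 163 and 142 in FMD_LO. All FMD_LO libraries lay below all CTR_LO libraries, although CTR_LO replicate 1 came closest to the highest of them. HMGCS1 went from 234 ± 59.9 to 151 ± 11.1 CPM (−0.63 ± 0.19, adjusted p = 0.0388). MVK, the kinase that phosphorylates mevalonate (chr12:109573272-109598125), measured 21.2, 23.5 and 25.8 CPM in CTR_LO and 12.6, 13.7 and 18.9 in FMD_LO. The groups did not overlap, and FMD_LO replicate 3 lay nearest to CTR_LO (−0.64 ± 0.18, adjusted p = 0.0295). PMVK, the next kinase (chr1:154924740-154942658), measured 47.3, 43.8 and 44.3 CPM in CTR_LO and 26.9, 29.3 and 38.0 in FMD_LO, again with replicate 3 highest and no overlap (−0.52 ± 0.16, adjusted p = 0.0413). MVD, IDI1, FDPS and GGPS1, which carry the chain on to the isoprenoid diphosphates, did not pass the test, with values from −0.41 ± 0.16 for MVD (adjusted p = 0.102) to −0.10 ± 0.14 for GGPS1. FDPS has processed pseudogenes that may share its reads, so its value is uncertain.

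Of the 3 genes that lead from farnesyl diphosphate to lanosterol, FDFT1 fell and SQLE and LSS did not pass the test. FDFT1, squalene synthase and the first enzyme committed to sterols (chr8:11795582-11839298), measured 94.4, 122 and 133 CPM in CTR_LO and 64.3, 67.0 and 84.6 in FMD_LO. Every FMD_LO library was below every CTR_LO library (116 ± 19.8 to 72.0 ± 11 CPM, −0.69 ± 0.16, adjusted p = 0.0103). SQLE, the monooxygenase that oxidises squalene, ranged from 83.1 to 178 CPM in CTR_LO and from 77.2 to 122 in FMD_LO, so that the groups overlapped (−0.44 ± 0.32, adjusted p = 0.379). LSS, which closes the lanosterol ring, was 70.4 ± 6.54 CPM in CTR_LO and 73.6 ± 6.02 in FMD_LO.

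After lanosterol, all 8 enzymes were lower in FMD_LO and 2 fell. SC5D, which adds the ring double bond that makes 7-dehydrocholesterol (chr11:121292771-121313410), measured 36.9, 43.1 and 42.4 CPM in CTR_LO and 25.9, 23.3 and 27.6 in FMD_LO. The lowest CTR_LO library was well above the highest FMD_LO library, and SC5D had the smallest adjusted p of the 30 genes (40.8 ± 3.38 to 25.6 ± 2.17 CPM, −0.67 ± 0.13, adjusted p = 0.00249). NSDHL, a dehydrogenase that helps remove the methyl groups of the sterol ring (chrX:152831063-152869729), measured 24, 28.6 and 24.7 CPM in CTR_LO and 15.6, 16.5 and 21.3 in FMD_LO, without overlap (−0.53 ± 0.15, adjusted p = 0.0269). EBP, a sterol isomerase, and TM7SF2, a sterol reductase, also did not overlap but did not pass the test (EBP −0.51 ± 0.22, adjusted p = 0.127; TM7SF2 −0.48 ± 0.23, adjusted p = 0.180). DHCR7, the reductase that makes cholesterol from 7-dehydrocholesterol, stood at −0.49 ± 0.19 (adjusted p = 0.0876) with overlapping groups. MSMO1 and CYP51A1, which remove methyl groups from lanosterol, stood at −0.41 ± 0.22 and −0.29 ± 0.19, and HSD17B7, a ketosteroid reductase of the same stage, at −0.39 ± 0.18. HSD17B7 can share reads with its copy HSD17B7P2 and is uncertain.

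**Figure D2:**
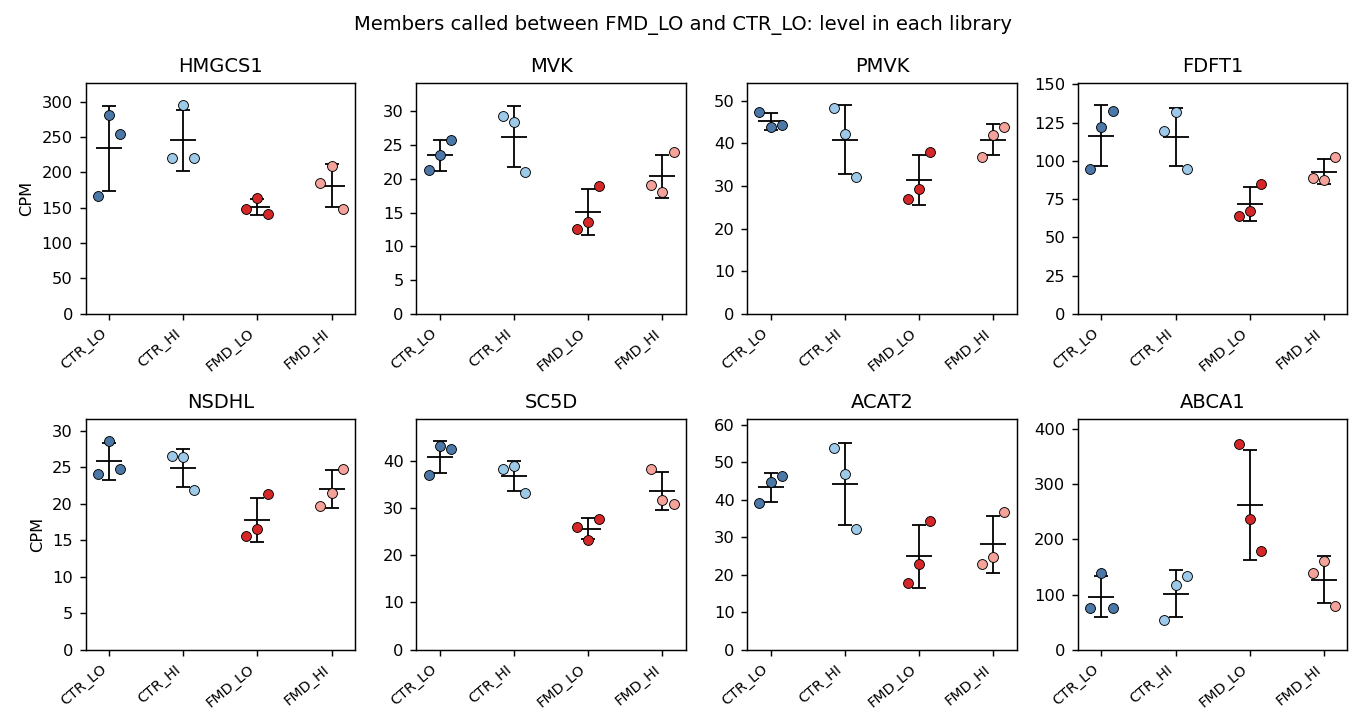
CPM (vertical axes from 0) of the 8 genes that rose or fell between CTR_LO and FMD_LO, 1 point per library in the 4 groups, with the mean and SD of 3 libraries as bars. For SC5D the FMD_LO points (23.3 to 27.6 CPM) lie below every other library, and for ABCA1 (179 to 372 CPM) above every other library.

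None of the 4 sterol-sensing genes rose or fell in FMD_LO. SREBF2 was 122 ± 20.9 CPM in CTR_LO and 117 ± 25.1 in FMD_LO (−0.05 ± 0.18), SCAP was 77.5 ± 7.59 and 86.2 ± 3.98 (0.15 ± 0.10), and INSIG2 was 12.7 ± 2.87 and 15.1 ± 1.91 (0.26 ± 0.21). INSIG1, itself a target of SREBP-2, measured 130, 280 and 215 CPM in CTR_LO and 262, 283 and 119 in FMD_LO. The groups overlapped widely and the fold change was 0.09 ± 0.42 (adjusted p = 0.912). By edgeR 0 of the 4 had an unadjusted p below 0.05.

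ACAT2, the cytosolic thiolase that makes acetoacetyl-CoA for HMGCS1 (chr6:159762045-159779112), measured 39.0, 44.8 and 46.3 CPM in CTR_LO and 17.8, 22.7 and 34.2 in FMD_LO. The groups did not overlap, and FMD_LO replicate 3 stood above the other two (43.4 ± 3.86 to 24.9 ± 8.40 CPM, −0.80 ± 0.25, adjusted p = 0.0496). SOAT1, which esterifies cholesterol for storage, measured 29.3 ± 3.65 and 31 ± 4.98 CPM in the 2 groups (0.08 ± 0.16). STARD4, a soluble cholesterol carrier, measured 24.7, 27.5 and 23.7 CPM in CTR_LO and 17.2, 23.6 and 18.5 in FMD_LO, without overlap but short of the threshold (−0.36 ± 0.13, adjusted p = 0.0876). NPC2, the lysosomal protein that hands cholesterol to NPC1, was lower without overlap at −0.29 ± 0.13 (adjusted p = 0.167), and NPC1 stood at 0.07 ± 0.22.

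ABCA1, the transporter that loads cholesterol onto apolipoprotein particles outside the cell (chr9:104781006-104928155), was the member that rose. It measured 75.7, 139 and 75.1 CPM in CTR_LO, 53.3, 118 and 135 in CTR_HI, 372, 237 and 179 in FMD_LO, and 140, 161 and 79.0 in FMD_HI. The lowest FMD_LO library was above the highest library of each other group, and the spread among FMD_LO libraries was wide. From CTR_LO to FMD_LO ABCA1 went from 96.5 ± 36.5 to 263 ± 99.4 CPM (1.44 ± 0.42, adjusted p = 0.0394). Set against the summed enzymes of the same library, ABCA1 made 21.3 to 46.3 CPM per 100 enzyme CPM in FMD_LO and 4.65 to 14.9 in the other libraries. ABCG1, a transporter that exports cholesterol to mature particles, stood at 0.22 ± 0.20, and MYLIP, a ubiquitin ligase that marks a lipoprotein receptor for degradation, at 0.21 ± 0.20, both with overlapping groups. ABCA1 is also made by macrophages and fibroblasts, and the summed myeloid and fibroblast markers given above were highest in the same 3 libraries. Their part in the ABCA1 result was not tested.

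SC5D kept its call in all 12 fits that each left out 1 library, with adjusted p from 0.0024 to 0.0176. The other calls depended on single libraries. FDFT1 was called in 9 of the 12 fits and lost without CTR_LO replicate 3 or FMD_LO replicate 1 or 2, with adjusted p up to 0.0631. MVK and NSDHL were called in 8 and lost without CTR_LO replicate 2 or 3 or FMD_LO replicate 1 or 2 (up to 0.133 and 0.119). HMGCS1 was called in 5 and lost without CTR_LO replicate 2 or 3, any FMD_LO library, CTR_HI replicate 3 or FMD_HI replicate 1 (up to 0.125). PMVK was called in 5 and ACAT2 in 4, and both were lost without any 1 CTR_LO library, FMD_LO replicate 1 or 2, or replicate 2 of CTR_HI or FMD_HI, with ACAT2 also lost without FMD_HI replicate 1 (up to 0.165 and 0.187). The number of members that fell was 1 without CTR_LO replicate 3 or without FMD_LO replicate 1, and 2 without CTR_LO replicate 2 or without FMD_LO replicate 2. ABCA1 was called in 7 and lost its call without CTR_LO replicate 1 (adjusted p = 0.109) or 3 (0.122), without FMD_LO replicate 1 (0.134) or 2 (0.0743), and without FMD_HI replicate 1 (0.0551). All 8 genes kept their sign in each of these fits.

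In CD24-high cells the diet changed no member past the threshold. By edgeR 0 of 30 rose and 0 fell (0% of all genes tested rose and 0% fell), and 3 members had an unadjusted p below 0.05, against 6.74% of all genes. In the main fit all 18 enzymes were lower in FMD_HI than in CTR_HI, with a median of −0.18 and a range from −0.44 to −0.00. Not every sign held in the alternatives. PMVK, next to 0, was higher under RLE scaling and by DESeq2, and IDI1 after thinning. Over the 30 members 22 were lower (51% of all genes), with a median of −0.10. Without CTR_HI replicate 2 this count was 17, with a median of −0.07, so it rests in part on that library. Libraries did not overlap for 4 members that were lower, HMGCS1, GGPS1, HSD17B7 and STARD4 (4.72% of all genes), and for 0 that were higher (4.48%). STARD4 measured 25.9, 24.7 and 25.8 CPM in CTR_HI and 17.5, 15.5 and 18.5 in FMD_HI. These 2 sets of libraries lay well apart, and the fold change was −0.57 ± 0.13 (adjusted p = 0.351 by edgeR). DESeq2 called it at an adjusted p of 0.0269, the 1 member among 78 genes that it called in this comparison. HMGCS1 stood at −0.44 ± 0.19 (adjusted p = 0.707) and ACAT2 at −0.65 ± 0.25 (adjusted p = 0.637). The 14 mitotic genes were lower here as well, with a median of −0.63.

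**Figure D3:**
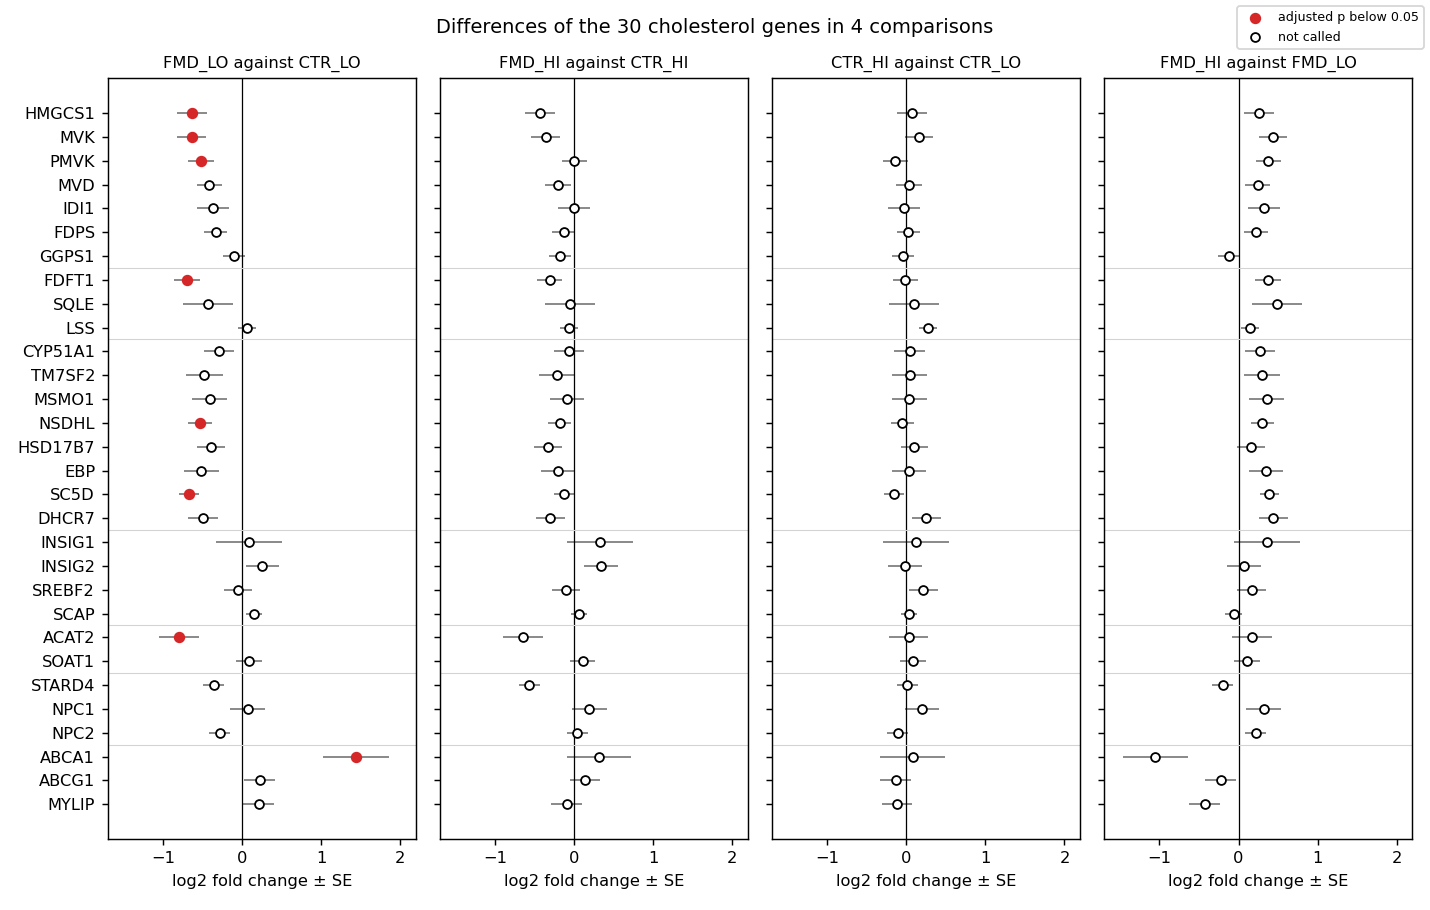
Log2 fold change ± SE of the 30 genes (rows, ordered by role) in 4 comparisons, with filled points for an adjusted p below 0.05. Only the comparison of FMD_LO with CTR_LO has filled points, and in that of FMD_HI with FMD_LO most synthesis enzymes lie right of 0.

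On the standard diet no member passed the test between the sorted populations. Between CTR_HI and CTR_LO, 0 members rose and 0 fell by edgeR (0% and 0% of all genes), and 1 member, LSS, had an unadjusted p below 0.05 (0.589% of all genes). LSS measured 81.3, 86.4 and 87.9 CPM in CTR_HI and 62.9, 74.3 and 74.0 in CTR_LO. It was the 1 member whose libraries did not overlap with CTR_HI higher (1.47% of all genes), and 0 did with CTR_HI lower (1.96%), at 0.27 ± 0.12 (adjusted p = 1). Log2 fold changes were negative for 10 of 30 members (51% of all genes), with a median of 0.03. That balance depended on single libraries. It was 20 members, with a median of −0.04, without CTR_LO replicate 1. Without CTR_HI replicate 2 it was 21, with a median of −0.05. DESeq2 called 0 genes here.

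Under the fasting-mimicking diet, the enzymes were higher in CD24-high than in CD24-low cells, without a call in the fit that treats all libraries as independent. By that fit 0 members rose (1.84% of all genes) and 0 fell (12.2%), and 7 had an unadjusted p below 0.05 (26.2%). Log2 fold changes were negative for 6 members (43.1% of all genes) and positive for 17 of 18 enzymes, GGPS1 being lower, with a median over the 30 genes of 0.25 against 0.06 for all genes. Libraries did not overlap for FDFT1, TM7SF2 and SC5D, which were higher in FMD_HI (13.1%), and for ABCA1 and MYLIP, which were lower (18.3%). SC5D measured 38.2, 31.7 and 30.8 CPM in FMD_HI against 25.9, 23.3 and 27.6 in FMD_LO (0.39 ± 0.13, adjusted p = 0.0550). ABCA1 stood at −1.05 ± 0.41 (adjusted p = 0.133).

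CD24-low and CD24-high libraries with the same replicate number deviated together under the fasting-mimicking diet. In a fit with a term for each FMD pair, SC5D rose in FMD_HI (0.39, adjusted p = 0.0381) and no other member was called (3.69% of all genes rose and 13.1% fell), with MVK next at 0.45 (adjusted p = 0.0522). A fit that also gave the CTR libraries a term for each number, although those numbers are not taken as pairs, called 8 members as higher in FMD_HI: MVK, PMVK, SQLE, NSDHL, SC5D, DHCR7, INSIG1 and NPC1 (10.3% of all genes rose and 16.8% fell). The calls of the 7 members other than SC5D therefore rest on that term. Counted by pair, 21 members were higher in CD24-high cells in 3 of 3 FMD pairs (35% of all genes), and 4, namely SCAP, ABCA1, ABCG1 and MYLIP, were lower in 3 of 3 (28.1%). SQLE was 1.48, 1.36 and 1.33 times as high in the CD24-high library of the 3 FMD pairs, and INSIG1 1.20, 1.23 and 1.59 times. ABCA1 was 0.37, 0.68 and 0.44 times as high. Summed fibroblast and myeloid markers were lower in FMD_HI than in FMD_LO in these same libraries, and their part in these differences was not tested.

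The effect of the diet was then compared between the populations. For 22 of 30 members the difference of the 2 diet effects was negative (54.7% of all genes), that is, lower in CD24-low cells. None passed the test by edgeR (0 rising against 4.07% of all genes, 0 falling against 0.0517%), and 2 had an unadjusted p below 0.05 (15.2% of all genes). These were PMVK at −0.52 ± 0.23 (adjusted p = 0.286) and SC5D at −0.54 ± 0.18 (adjusted p = 0.119). With a term for the FMD pairs neither passed (PMVK −0.53, adjusted p = 0.169; SC5D −0.54, adjusted p = 0.0856), and 4.67% of all genes rose and 0.181% fell. Where the CTR libraries had terms for their numbers too, both passed (adjusted p = 0.0430 and 0.0396; 8.97% of all genes rose and 2.04% fell), a result that rests on numbers not taken as pairs. The drop of the enzymes in CD24-low cells was therefore not shown to differ from the values in CD24-high cells, and for ABCA1 the difference was 1.13 ± 0.58 (adjusted p = 0.411).

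Within each group, 5 of the 18 enzymes were highest in the library where INSIG1 was highest. INSIG1 was highest in replicate 2 of all 4 groups, and HMGCS1, IDI1, SQLE, CYP51A1 and MSMO1 were highest in that library too, 5 of the 29 other members against 608 of 15460 other genes (3.93%). SQLE was also lowest where INSIG1 was lowest in all 4 groups, a pattern of 108 genes (0.699%). HMGCS1, IDI1, CYP51A1 and MSMO1 were lowest there in 3 of the 4 groups. In CTR_HI, SQLE measured 115, 210 and 123 CPM and INSIG1 153, 345 and 180. The members fell into a wide range of spread: the median coefficient of variation over the 4 groups was 38.2% for INSIG1, 37.8% for ABCA1 and 30.0% for SQLE, against 5.58% for SCAP and 8.47% for SC5D. Replicates of one group have no order, and this is a description of the 12 libraries. FMD_LO and FMD_HI libraries of the same number are taken as pairs, so the 4 groups do not agree independently. The CTR_LO and CTR_HI libraries of replicate 2 also deviated together (r = 0.522), although CTR numbers are not taken as pairs.

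**Figure D4:**
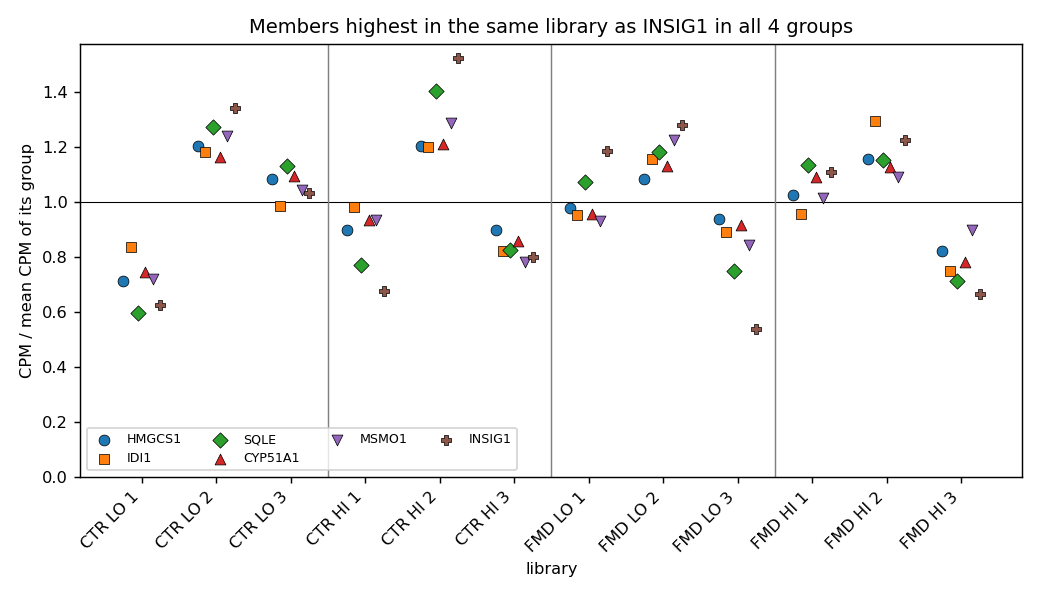
CPM of HMGCS1, IDI1, SQLE, CYP51A1, MSMO1 and INSIG1 in each of the 12 libraries, divided by the mean of that gene in its group of 3, so that 1 is the group mean. In each group all 6 genes have their highest point in the second library.

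Per kilobase of exon, NPC2, INSIG1, HMGCS1 and FDPS were the most abundant members in CTR_LO, at 88.5, 67.7, 66.3 and 65.6 CPM per kb, and TM7SF2 (1.98), ABCG1 (3.22), HSD17B7 (4.11) and SOAT1 (4.24) the least. ABCA1, whose transcript is long, had 8.57 CPM per kb in CTR_LO and 23.3 in FMD_LO. The lowest count behind any level was 30, for TM7SF2 in an FMD_LO library, so its values carry the largest counting error.

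A further 45 genes of sterol metabolism were listed, of which 41 were tested. Between FMD_LO and CTR_LO 8 of the 41 rose (12% of all genes) and 2 fell (4.33%), with a median of 0.10. None of the 10 genes of SREBP processing and enzyme turnover rose or fell by edgeR (2 had an unadjusted p below 0.05). OSBPL9, an oxysterol-binding protein of the Golgi, went from 85.0 ± 14.2 to 345 ± 26.7 CPM (2.02 ± 0.14, adjusted p = 1.3e-06). GRAMD1B, which carries cholesterol from the plasma membrane to the endoplasmic reticulum, went from 2.29 ± 0.71 to 10.7 ± 0.55 CPM (2.23 ± 0.27, adjusted p = 0.000109). SOAT2, the esterifying enzyme of liver and intestine, had 16 counts over the 3 CTR_LO libraries and 202 over the 3 FMD_LO libraries (4.68 ± 0.55, adjusted p = 8.47e-05). VLDLR, a lipoprotein receptor, and NR1H2, the LXR-beta receptor, also rose (1.65 ± 0.29 and 0.42 ± 0.09). Between FMD_HI and FMD_LO 1 of the 41 rose (1.84% of all genes) and 7 fell (12.2%). OSBPL9, GRAMD1B, SOAT2 and VLDLR were among those that fell. VLDLR lost that call without FMD_LO replicate 1 (adjusted p = 0.0598).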

How the data were processed

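RNA was sequenced from SUM159 tumour cells sorted out of mouse tumours, in 4 groups of 3 libraries made with a strand-specific kit for polyadenylated RNA. The authors deposited raw counts per gene, which STAR and hg38 underlie per the submitters' processing notes. The version of STAR, the annotation and any removal of mouse reads are not given in the sources used here. Analysed counts were those of column 4, the strand that the kit reads, and the other strand held 1.59% to 1.75%.

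Counts were analysed with edgeR 4.0.16 in R 4.3.3 (TMM, default filter by group, robust quasi-likelihood test, 8 residual degrees of freedom, biological coefficient of variation 0.19), with Benjamini-Hochberg adjustment over 15461 genes. The filter left out 11014 genes. SE is the fold change over the square root of F. The method was tested on simulated data. Alternatives were DESeq2 1.42.0, RLE scaling, no count filter, counts of either strand, only the groups compared, a replicate block, thinning to the smallest library, and leaving out each library. The variance between replicates had a median of 5.63 to 10.4 times counting noise, so spread between samples limits the precision. No source says that replicates are separate mice, and p-values measure that spread only.

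All 30 members were named, with at most 6 other called pathway genes per comparison. One gene that this rule took is not reported here. Members and lists were chosen with earlier results of these data known. Same-numbered FMD_LO and FMD_HI libraries deviated together (r = 0.444, 0.285 and 0.485), which pairs them. In CTR_LO and CTR_HI r was 0.445, 0.522 and 0.0373. Each CTR_LO library also correlated most with the CTR_HI library of its own number, for replicate 3 only at 0.0373 against −0.00931. Because of replicate 3 the number is not taken as a pair there, although pairs are possible. The fit that blocks CTR libraries too is an alternative only. Pairing comes from the data, and between diets the number pairs nothing. Positions and promoters came from RefSeq (GRCh38.p14, the primary assembly of hg38), exon lengths from GENCODE 29.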

Additional observations from a re-analysis of the deposited data

Results flagged for a closer look

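For 3 further genes of sterol metabolism the effect of the diet differed between the CD24-low and the CD24-high population by the test of that difference. These were 3 of 41 tested, all rising, against 4.07% of all genes rising. OSBPL9 differed by 2.05 ± 0.19 (adjusted p = 9.83e-05), standing at 2.02 in CD24-low and −0.03 in CD24-high cells. SOAT2 differed by 4.99 ± 0.90 (adjusted p = 0.00717), with 202 counts over the 3 FMD_LO libraries against 12 to 16 in each other group. GRAMD1B differed by 2.08 ± 0.38 (adjusted p = 0.00736), at 10.7 ± 0.55 CPM in FMD_LO and 2.59 ± 0.66 in FMD_HI.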

How the results depend on the processing

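Between FMD_LO and CTR_LO the number of members that fell was 5 to 7 under the alternatives with all 12 libraries, and that of members that rose was 0 without the count filter and 1 otherwise. Leaving out 1 library gave 1 to 7 that fell, 0 to 1 that rose and 1562 to 2795 genes called against 2533. PMVK lost its call under RLE scaling, ACAT2 under RLE scaling and without the filter, and ABCA1 without the filter (adjusted p = 0.0932). Between FMD_HI and CTR_HI, where edgeR called 0 genes (1042 at an unadjusted p below 0.05), 1 gene was called without the count filter, 78 by DESeq2 (1 a member that fell), and 0 to 1 with a library left out. Between FMD_HI and FMD_LO 1 member rose by DESeq2 and 1 after thinning, SC5D in both, and 0 to 2 with a library left out (MVK and PMVK without FMD_LO replicate 3), with 1504 to 2318 genes called against 2163. For the interaction DESeq2 called 1134 genes against 638, and fits without a library 380 to 767. The cause of these changes was not tested. Over all alternatives of the members, 44 values lost and 20 gained a call. No value called in the main fit or in the alternative changed sign. Values called in neither were counted as unchanged whatever their sign, and signs did change among these. Between FMD_HI and CTR_HI, 22 members were lower in the main fit and 17 without CTR_HI replicate 2.

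With the replicate block over all 4 groups, 2867 genes were called between FMD_LO and CTR_LO and 6 members fell, 1 gene was called between FMD_HI and CTR_HI, and PMVK (adjusted p = 0.0561) and ACAT2 (0.051) lost their calls while MVD gained one (0.0488). Blocks by number in each diet, and in the FMD diet only, were chosen after seeing the data. In the FMD diet only, 1 member rose between FMD_HI and FMD_LO. With blocks in each diet, 8 members rose and 4201 genes were called there, and 2 members fell and 1702 genes were called for the interaction.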
